A study of Mus musculus with 63 samples.

Results

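Overexpression of Yy1 in undifferentiated mouse embryonic stem (ES) cells was examined in 4 RNA-seq libraries, 2 of ES cells labelled oeYy1 and 2 of ES cells labelled oeCtrl, out of 63 samples in the series, of which 22 have tables of read counts per gene. All 4 came from C57BL/6 cells kept in serum-free 2i medium, which blocks MEK and GSK3 signalling. The groups differ by label only in the overexpressed construct, and the labels do not state the vector, its promoter, whether cells were selected, or whether a line was 1 clone. They also do not say which cultures grew on mitomycin C-inactivated embryonic fibroblast feeders and which on Matrigel, or whether the replicates were separate cultures. The p-values therefore speak only to the spread between replicate libraries, which may be technical. That spread was estimated jointly over all groups in the fit, not from the oeYy1 and oeCtrl libraries alone. The fit also held 3 libraries of untransduced ES cells in 2i medium and 3 of untransduced extended pluripotent stem (EPS) cells in LCDM medium. It further held 2 each of EPS cells carrying a control (shCtrl) or Yy1-depleting (shYy1) short hairpin RNA. All of these were C57BL/6.

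YY1 is a zinc-finger transcription factor that binds a short motif near the start sites of many genes and at enhancers, and can either activate or repress. It also dimerises, and in ES cells it has been found at contacts between enhancers and promoters. Cofactors described for it include the INO80 chromatin remodelling complex and Polycomb proteins. Mouse ES cells in 2i have low DNA methylation, low ERK signalling and a naive pluripotent state.

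Gene counts came to 14193750 to 15300525 in the 4 libraries. At that depth 3 counts, a mark for reading genes with none, stand for 0.196 to 0.211 CPM (counts divided by each library's gene total and put on the same scale). This is an allowance for counting error only, and the fold changes used no such floor. Yy1 itself was at 120 and 124 CPM in the oeCtrl libraries and at 934 and 941 in the oeYy1 libraries. The untransduced ES libraries had 116, 108 and 130, so oeCtrl was at the endogenous level and both oeYy1 libraries far above it. The log2 difference was 2.94 ± 0.11 (SE; edgeR quasi-likelihood test, adjusted p = 4.9e-11), and Yy2, the retrotransposed relative of Yy1, had 0 counts throughout.

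The libraries carried the defining transcripts of ES cells. The summed level of 6 markers (Pou5f1, Sox2, Nanog, Esrrb, Zfp42, Sall4) was 3230 to 3267 CPM in oeCtrl and 3716 to 3820 in oeYy1. Markers of feeder fibroblasts, 10 in number, summed to 2.82 to 2.88 CPM in oeCtrl and 10.99 to 11.8 in oeYy1, with Twist2 at 0 in all 4, against 1986 to 3649 in the untransduced ES libraries. Less RNA per cell and fewer cells of a type cannot be told apart in bulk RNA, and the part of this difference in any comparison with untransduced ES cells was not tested. Markers of primitive endoderm, trophoblast, neuroectoderm and mesendoderm summed to 6.02 to 27.9 CPM per type in the 4 libraries.

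Of 16440 genes tested, 5255 were called (32%), at an adjusted p under 0.05: 2441 were called higher in oeYy1 (14.8%) and 2814 lower (17.1%). At least a 2-fold difference as well was met by 1192 higher (7.25%) and 1251 lower (7.61%). Without any 1 of the 4 libraries in turn, 1369 to 1533 genes were called higher and 1691 to 2081 lower. The median log2 difference over all genes tested was 0.01.

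**Figure D1:**
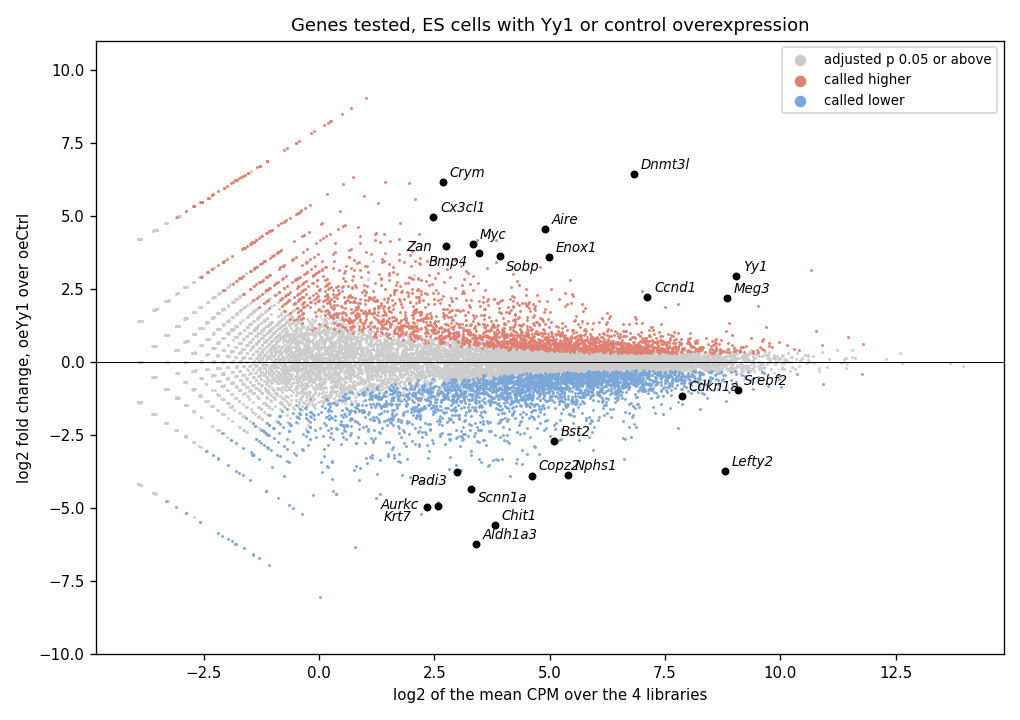
Each point is 1 gene, with the log2 of its mean CPM over the 4 libraries on the x axis and its log2 fold change of oeYy1 over oeCtrl on the y axis; red and blue points were called higher and lower. Dnmt3l (6.42), Crym (6.17) and Cx3cl1 (4.98) stand at the top among the named genes and Aldh1a3 (-6.23) and Chit1 (-5.57) at the bottom.

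The genes with the largest rises were mostly near silent in oeCtrl, which picking by fold change favours. Dnmt3l, the catalytically inactive partner of the de novo DNA methyltransferases, had 2.54 and 2.68 CPM in oeCtrl, 218 and 232 in oeYy1 and 9.13 to 18.1 in untransduced ES cells. Both control sets lay far below oeYy1, and oeCtrl also lay below untransduced ES cells. The log2 difference was 6.42 ± 0.35 (adjusted p = 2e-08). Its genome neighbour Aire, a transcriptional regulator best known for tissue antigen expression in the thymus, went from 2.68 and 2.16 to 57.8 and 56.9 CPM (4.56 ± 0.29, adjusted p = 1.7e-08). Untransduced ES cells had 2.7 to 3.89, so Aire was at the oeCtrl level there.

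Large rises were also seen for Bmp4, Id3, Myc and Cx3cl1. Bmp4, a ligand of the BMP pathway, was at 1.17 and 1.9 CPM in oeCtrl and at 20.2 and 21 in oeYy1 (log2 3.73 ± 0.30, adjusted p = 1.9e-07). Id3, a target of BMP signalling that inhibits basic helix-loop-helix factors, was at 0.275 and 1.96 against 22.9 and 23.3 CPM (4.33 ± 0.44, adjusted p = 4.6e-06). The oeCtrl libraries differed widely for Id3, and its log2 difference was 3.53 without oeCtrl replicate 1 and 6.36 without oeCtrl replicate 2. For Id3 the untransduced ES cells, at 14.8 to 21.1 CPM, were close to oeYy1, whereas for Bmp4, at 2.12 to 2.52, they were close to oeCtrl. Myc, which drives growth and proliferation genes, was at 1.17 and 1.11 CPM in oeCtrl and 18.1 and 19.9 in oeYy1 (4.04 ± 0.28, adjusted p = 3.9e-08), with 4.8 to 7.3 in untransduced ES cells. The chemokine gene Cx3cl1 was at 0.206 and 0.458 against 10.2 and 11.4 CPM (4.98 ± 0.42, adjusted p = 2.9e-07), with a log2 difference of 5.67 without oeCtrl replicate 2. Neither group overlapped the other for any of these genes, which by itself was common, since oeYy1 lay wholly above oeCtrl for 38.3% of all genes tested and wholly below for 36.1%. The other large rises, with log2 differences of 3.60 to 6.17, were Crym (a thyroid hormone binding protein), Kcp (a modulator of BMP signalling), the transcription factor Pou4f2, the sperm protein gene Zan, Sobp and Enox1. Without oeCtrl replicate 1 or 2 in turn, the value of Crym was 7.42 or 5.50.

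The largest falls were of genes at moderate levels in oeCtrl. Picking by fold change among genes averaging 5 CPM or more over the 4 libraries largely sets such levels. Aldh1a3, an enzyme that makes retinoic acid, was at 21.1 and 20.8 CPM in oeCtrl and at 0.262 and 0.282 in oeYy1 (log2 -6.23 ± 0.43, adjusted p = 3.9e-08). Its level in untransduced ES cells, 20.7 to 25.1 CPM, took in both oeCtrl values, so the fall held against both. Chit1, a chitinase, was at 28.3 and 26.9 against 0.72 and 0.423 CPM (-5.57 ± 0.41, adjusted p = 6.5e-08). Its level in untransduced ES cells, 5.67 to 6.24 CPM, lay between the other groups. Cldn7, a tight junction claudin, was at 36.4 and 30.1 against 2.36 and 2.11 CPM (-3.89 ± 0.41, adjusted p = 9.8e-06), with 20.3 to 33.9 in untransduced ES cells. Other large falls, with log2 differences of -4.97 to -3.73, were Krt7, Aurkc, Chil1, Scnn1a, Copz2, Nphs1, Padi3 and Lefty2. For each of these the mean in untransduced ES cells lay between those of oeCtrl and oeYy1. For Aurkc it was 2.52 CPM, against 11.5 in oeCtrl and 0.377 in oeYy1, and for Scnn1a 6.49, against 18.8 and 0.924. Without oeYy1 replicate 1 or 2 in turn, the value of Krt7 was -4.29 or -6.15, and without oeYy1 replicate 2 that of Chil1 was -5.43.

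**Figure D2:**
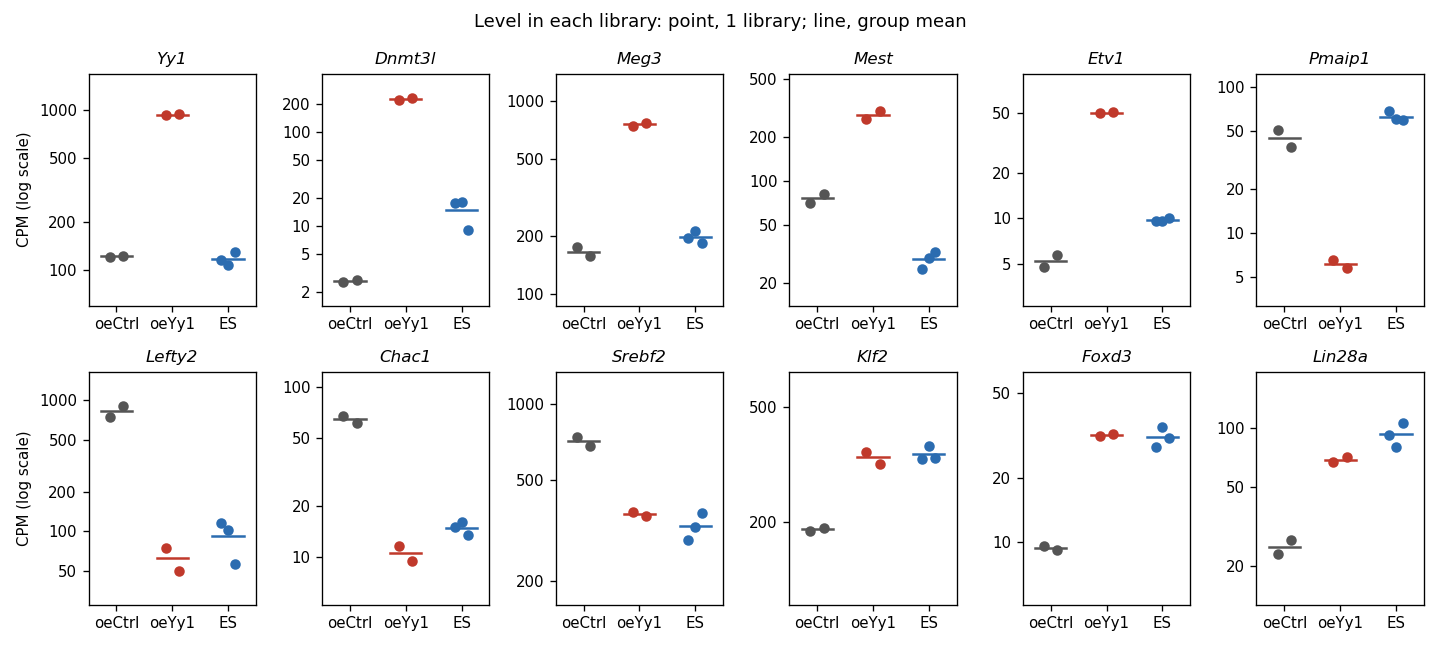
CPM of 12 genes on log axes, each axis with its own range, in the 2 oeCtrl, 2 oeYy1 and 3 untransduced ES libraries; points are libraries and lines group means. In the top row oeYy1 stands apart from both other groups (Dnmt3l 218 and 232 CPM), and in the bottom row oeCtrl stands apart from both (Chac1 68 and 61.6 CPM).

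For a further set of genes the oeYy1 libraries were at or near the level of untransduced ES cells and the oeCtrl libraries were the ones set apart. Lefty2, a secreted inhibitor of Nodal signalling, was at 742 and 908 CPM in oeCtrl, 74.7 and 49.8 in oeYy1, and 115, 103 and 56.7 in untransduced ES cells. It fell by 3.73 ± 0.41 on the log2 scale against oeCtrl (adjusted p = 5.2e-05), while against untransduced ES cells the difference was -0.62 with an adjusted p of 0.15. Since these comparisons share the oeYy1 libraries, they are set side by side and not counted against each other.

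Sterol genes fell as a list against oeCtrl. Of 24 tested members of the cholesterol synthesis list, 18 fell (75% against 17.1% of all genes) and 1 rose, with a median log2 difference of -0.73 against 0.01 for all genes. Without any 1 of the 4 libraries in turn, 12 to 14 fell and the 1 rise was lost. Srebf2, the transcription factor that activates sterol synthesis genes, was at 738 and 683 CPM in oeCtrl, 373 and 359 in oeYy1, and 290 to 370 in untransduced ES cells. Its log2 difference was -0.96 ± 0.12 (adjusted p = 1.1e-05) against oeCtrl and 0.10 (adjusted p = 0.43) against untransduced ES cells. Stard4, a sterol carrier, Insig1, the sterol-sensing brake on SREBP processing, and Nsdhl, a dehydrogenase of the pathway, fell by 1.26, 0.84 and 0.82. Against untransduced ES cells, 4 of the 24 were lower and 8 higher in oeYy1, where 28.9% and 27.1% of all genes were, and the median was 0.05. Stard4 was lower there too (-0.61, adjusted p = 0.00028).

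To show what start-site sequence lies at such genes, promoter windows of 250 bases before to 50 bases after the start site were read from RefSeq on GRCm38.p6 for the gene with the largest rise, for the imprinted gene described next and for the leading sterol regulator. Capitals mark matches on either strand to ATGGCGGC, a form of the YY1 motif, or to CCATNTT, another form that overlaps it at the letters CCAT or ATGG. The Dnmt3l window is the first of 3 by position (chr10:78042037-78042336, plus strand), the Meg3 window the one of 2 that holds the motif (chr12:109540746-109541045, plus strand), and the Srebf2 window its single entry (chr15:82147019-82147318, plus strand).
Dnmt3l: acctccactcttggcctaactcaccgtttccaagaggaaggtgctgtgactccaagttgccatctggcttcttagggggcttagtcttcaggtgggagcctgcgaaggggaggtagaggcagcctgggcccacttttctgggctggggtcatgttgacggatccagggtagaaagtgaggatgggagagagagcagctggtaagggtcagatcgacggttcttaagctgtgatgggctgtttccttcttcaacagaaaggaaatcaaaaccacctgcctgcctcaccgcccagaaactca
Meg3: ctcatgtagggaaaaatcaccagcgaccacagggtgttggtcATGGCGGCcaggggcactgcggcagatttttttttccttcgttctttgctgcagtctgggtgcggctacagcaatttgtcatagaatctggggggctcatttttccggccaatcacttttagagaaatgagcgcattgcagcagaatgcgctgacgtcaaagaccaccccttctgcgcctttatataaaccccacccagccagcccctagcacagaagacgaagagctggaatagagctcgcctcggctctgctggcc
Srebf2: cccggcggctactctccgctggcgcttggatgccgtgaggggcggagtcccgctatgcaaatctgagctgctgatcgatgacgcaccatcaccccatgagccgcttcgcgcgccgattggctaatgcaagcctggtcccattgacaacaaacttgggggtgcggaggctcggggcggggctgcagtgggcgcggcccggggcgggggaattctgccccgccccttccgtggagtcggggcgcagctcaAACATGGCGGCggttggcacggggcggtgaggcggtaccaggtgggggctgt
The Dnmt3l window held neither form, the Meg3 window held ATGGCGGC and the Srebf2 window held both, in 1 run of overlapping letters. Over the 11279 tested genes with a window (68.6%), 5.06% held ATGGCGGC and 17% held CCATNTT in at least 1 window. Among genes called higher the shares were 4.37% and 16.3%, among genes called lower 4.38% and 15.7%. For genes that changed at least 2-fold they were 2.2% and 14.6% for higher and 2.49% and 12.3% for lower. The shares in the called genes were thus no higher than over all genes; a match is a description of the letters, not a measured binding site.

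The long RNAs of the imprinted Meg3 region rose together. Meg3, a maternally expressed long non-coding RNA, was at 175 and 157 CPM in oeCtrl and 743 and 766 in oeYy1, with 184 to 211 in untransduced ES cells (log2 2.18 ± 0.15, adjusted p = 4.4e-08). Rian, the long RNA that hosts small nucleolar RNAs downstream of it, was at 321 and 287 against 1125 and 1196 CPM (1.93 ± 0.14, adjusted p = 4.4e-08). Mirg, the microRNA host further along, was at 12.9 and 13.5 against 63.7 and 71.4 CPM (2.35 ± 0.22, adjusted p = 8.3e-07). In all 3 the oeYy1 libraries were several times above both other groups. Rtl1, a paternally expressed retrotransposon-derived gene that has a maternal antisense transcript, rose by 2.97 ± 0.37 (adjusted p = 1.6e-05), and without the strand of counting, which the labels do not state, sense and antisense reads there cannot be told apart. Dlk1, the paternally expressed protein gene at the start of the region, was at 0.619 and 0.261 against 0.458 and 0.141 CPM (-0.51 ± 0.79, adjusted p = 0.66). Elsewhere Mest, a paternally expressed gene, was at 70.6 and 81.7 against 268 and 303 CPM (1.90 ± 0.21, adjusted p = 8.4e-06). Of 34 tested imprinted genes 10 rose and 7 fell, beside 14.8% and 17.1% of all genes, and 7 rose and 3 to 5 fell without any 1 of the 4 libraries. Their median was 0.29 against oeCtrl and -0.23 against untransduced ES cells, with 7 higher and 15 lower in the latter comparison.

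Among 18 genes of the DNA methylation machinery 6 rose and 2 fell, beside 14.8% and 17.1% of all genes. Fewer fell in each of the fits without 1 of the 4 libraries. Beside Dnmt3l, the de novo methyltransferase Dnmt3b rose by 1.59 ± 0.27 (38.9 and 39.5 against 117 and 119 CPM, adjusted p = 0.00045) and Dnmt3a by 1.06 ± 0.17 (adjusted p = 0.00016). Tet2, an enzyme that oxidises methylcytosine, was at 76.3 and 105 against 193 and 197 CPM (1.09 ± 0.24, adjusted p = 0.0025). Zfp57, which protects imprints, was at 347 and 329 against 635 and 660 CPM (0.93 ± 0.14, adjusted p = 9.3e-05). The maintenance enzyme Dnmt1 (-0.20 ± 0.11, adjusted p = 0.19) and Tet1 (0.14 ± 0.22, adjusted p = 0.67) were not called. Germline genes that are known to be silenced by DNA methylation did not go 1 way, with 8 of 30 higher and 8 lower (5 to 7 and 7 to 9 in those fits). Dazl, an RNA-binding germ cell factor, was at 22.4 and 19.5 against 4.84 and 5.21 CPM (-2.06 ± 0.34, adjusted p = 0.00031), and Tex14, of the germ cell bridge, fell by 2.09. Syce1, of the synaptonemal complex, was at 4.06 and 4.05 against 30.2 and 35.4 CPM (3.01 ± 0.24, adjusted p = 1.5e-07), and Piwil1, a piRNA-binding protein, rose by 2.04.

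Among pluripotency factors, Nanog (0.24 ± 0.12, adjusted p = 0.16) and Esrrb (0.02 ± 0.10, adjusted p = 0.90) were not called, and Zfp42 (0.31 ± 0.13, adjusted p = 0.088) was not either. Pou5f1 was at 163 and 153 against 223 and 228 CPM, with 345 to 498 in untransduced ES cells (0.51 ± 0.15, adjusted p = 0.017), but its call was lost without any 1 of the 4 libraries (highest adjusted p = 0.10). The calls of Sox2 (0.31, adjusted p = 0.045) and Klf4 (0.35, adjusted p = 0.031) were lost in the same way, with adjusted p up to 0.28 and 0.22. Klf2, a naive factor, was at 187 and 192 against 350 and 319 CPM, with 330 to 365 in untransduced ES cells (0.82 ± 0.15, adjusted p = 0.00059). Lin28a, which blocks let-7 microRNA maturation, was at 23 and 27.2 against 66.9 and 70.8 CPM, with 79.9 to 105 in untransduced ES cells (1.45 ± 0.23, adjusted p = 0.00017). Both thus stood nearer to untransduced ES cells in oeYy1 than in oeCtrl, while Dppa5a, at 655 and 628 against 277 and 239 CPM (-1.32 ± 0.23, adjusted p = 0.0004), stood further from their 1409.9 to 2112.

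Of 13 core pluripotency genes 6 rose and 1 fell, beside 14.8% and 17.1% of all genes, and 2 to 4 rose without any 1 of the 4 libraries. Of 22 naive genes 7 rose and 4 fell, and 3 to 5 rose and 1 to 2 fell in those fits. Of 21 formative and primed epiblast genes 9 rose and 2 fell (5 to 6 rose in those fits). Foxd3, a factor of the exit from naive pluripotency, was at 9.63 and 9.22 against 31.3 and 31.9 CPM, with 27.9 to 34.6 in untransduced ES cells (1.74 ± 0.18, adjusted p = 1.8e-06). Sox3, which takes over from Sox2 in neural progenitors, was at 0.275 and 0.131 against 1.77 and 1.83 CPM (3.11 ± 0.53, adjusted p = 0.00027).

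Genes that respond to ERK signalling rose in 7 of 20 cases and fell in 1, beside 14.8% and 17.1% of all genes, with a median of 0.19. Against untransduced ES cells 5 were higher and 8 lower, with a median of -0.26. Beside Myc, the ETS factor Etv1 was at 4.75 and 5.75 against 49.9 and 50.7 CPM, with 9.65 to 10.02 in untransduced ES cells (3.25 ± 0.17, adjusted p = 2.4e-09). Spry4, which dampens receptor tyrosine kinase signalling, was at 1.44 and 1.7 against 14.1 and 16.6 CPM (3.28 ± 0.32, adjusted p = 1.4e-06). The feedback genes Dusp6, an ERK phosphatase, and Spry2 rose by 1.18 and 0.83. Among Wnt targets 3 of 17 rose, a share near that of all genes, and 1 fell, a fall that was lost without any 1 of the 4 libraries; Ccnd1, the G1 cyclin, was at 46.8 and 51.8 against 221 and 237 CPM (2.21 ± 0.32, adjusted p = 0.00023). Of 15 LIF and STAT3 targets 3 rose and 4 fell, led by the falls of the kinases Pim3 (176 and 167 against 90.2 and 81.8 CPM) and Pim1 (-0.85) and of Bcl3 (-0.99). All 3 rises in that list were lost without at least 1 library (0 to 2 rose).

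Targets of p53 fell in 11 of 20 cases and rose in 1, beside 17.1% and 14.8% of all genes, with a median of -0.53. Somewhat fewer fell in each fit without 1 of the 4 libraries. Pmaip1, which encodes the pro-apoptotic NOXA, was at 50.4 and 38.4 against 6.54 and 5.71 CPM, with 59.5 to 68.2 in untransduced ES cells (-2.86 ± 0.20, adjusted p = 3.9e-08). Cdkn1a, the cell-cycle inhibitor p21, was at 332 and 308 against 149 and 140 CPM, with 305 to 318 in untransduced ES cells (-1.15 ± 0.15, adjusted p = 1.7e-05). Btg2, an antiproliferative gene, fell by 1.31 and Eda2r, a receptor gene, by 1.01. These 4 were at similar or higher levels in untransduced ES cells than in oeCtrl, so oeYy1 was the low group. Perp, a desmosomal protein, was the exception, at 5.64 and 4.9 against 17.7 and 19.09 CPM (1.80 ± 0.25, adjusted p = 3.8e-05), with 12.4 to 20.6 in untransduced ES cells.

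Serine, one-carbon and amino acid stress genes fell in 11 of 25 cases (9 to 11 without any 1 of the 4 libraries) and rose in 2 (0 to 1), with a median of -0.22. Chac1, which degrades glutathione, was at 68 and 61.6 against 11.6 and 9.44 CPM, with 13.5 to 16.1 in untransduced ES cells (-2.62 ± 0.32, adjusted p = 2.5e-05). Trib3, a pseudokinase induced by ATF4, was at 153 and 153 against 49.9 and 43.3 CPM (-1.72 ± 0.18, adjusted p = 2.6e-06). The serine synthesis enzymes Phgdh (190 and 167 against 94.7 and 84.3 CPM) and Psat1 (by 0.63) fell, and the mitochondrial folate enzyme Mthfd2 fell by 0.79. In glycolysis 4 of 24 genes rose and 5 fell, near the shares of all genes (14.8% and 17.1%). Eno1 was at 1070 and 1203 against 2393 and 2345 CPM (1.05 ± 0.16, adjusted p = 0.0001), while Ldhb was at 497 and 428 against 158 and 145 CPM (-1.61 ± 0.16, adjusted p = 1.1e-06). Eno1 has processed copies in the genome, between which reads may be split. By contrast 0 of 56 cytosolic ribosomal protein genes rose (0 also at an unadjusted p under 0.05 and by DESeq2) and 1 fell, and 3 of 51 nuclear genes of oxidative phosphorylation rose and 5 fell. Without any 1 of the 4 libraries, 0 to 1 of these ribosomal genes fell, and 0 to 1 of the oxidative phosphorylation genes rose and 1 to 3 fell.

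In an epithelial to mesenchymal list of 18 genes, 9 fell (8 to 9 without any 1 of the 4 libraries) and 6 rose (3 to 4), beside 17.1% and 14.8% of all genes. Beside Cldn7, the adhesion molecule Epcam was at 100.3 and 81 against 26.6 and 22.5 CPM, with 56 to 58.3 in untransduced ES cells (-1.88 ± 0.19, adjusted p = 1.6e-06). Ocln, of tight junctions, was at 14.6 and 14.5 against 4.78 and 4.37 CPM (-1.67 ± 0.19, adjusted p = 5.3e-06). Cdh2, encoding N-cadherin, was at 1.99 and 1.31 against 8.83 and 7.96 CPM, with 5.88 to 7.87 in untransduced ES cells (2.34 ± 0.29, adjusted p = 1.3e-05). Itgb1, an integrin subunit of the list, fell by 0.94. Fn1, the mesenchymal matrix protein fibronectin, was lower as well, at 2212 and 2669 against 1396 and 1506 CPM (-0.76 ± 0.19, adjusted p = 0.0052), but its call was lost without oeCtrl replicate 2 (adjusted p = 0.068) or oeYy1 replicate 1 (adjusted p = 0.054). Feeder fibroblast markers were higher in the oeYy1 libraries as well, in the ranges given above, and their part in the rise of Cdh2 was not tested. Of 17 trophoblast genes 5 fell and 1 rose: the keratins Krt7 (10.6 and 9.02 against 0.131 and 0.493 CPM, -4.97 ± 0.58, adjusted p = 8.2e-06) and Krt18 fell, as did the factors Gata2 (-2.35) and Esx1 (-2.15). The trophoblast markers given above went the other way in sum, mostly through Eomes (17.7 and 19.6 against 27.3 and 25.4 CPM).

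Of other lineage genes, Gata4, of primitive endoderm, was at 11.3 and 12.5 against 5.3 and 5.57 CPM (-1.14 ± 0.25, adjusted p = 0.002), with 4.18 to 4.83 in untransduced ES cells. Gata6 (-1.87 ± 0.86, adjusted p = 0.11), Sox17 (1.09 ± 0.55, adjusted p = 0.14) and Pdgfra (0.39 ± 0.61, adjusted p = 0.67) were not called. Olig2, a neural factor, was at 10.6 and 8.04 against 37.3 and 37.1 CPM (1.99 ± 0.18, adjusted p = 5.6e-07). Of 18 tested Hox genes 7 fell and 2 rose, beside 17.1% and 14.8% of all genes, and 4 to 5 fell and 0 to 1 rose without any 1 of the 4 libraries. Among them Hoxc4, at 8.6 and 6.47 against 1.18 and 2.04 CPM (-2.23 ± 0.43, adjusted p = 0.00081), was the named member with the highest level in oeCtrl.

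Some genes near silence in oeCtrl gained counts. The called members below stand beside 14.8% of all genes called higher and 17.1% lower. Genes of the 2-cell-like state, expressed in a small fraction of ES cells, summed to 2 and 2 counts in oeCtrl and to 51 and 57 in oeYy1. Of 10 tested members 5 were called higher, but only 1 to 5 were without any 1 of the 4 libraries, and the Zscan4 copies among them are near identical, so their reads may be split. The untransduced ES libraries had 0 to 5 counts. Clustered protocadherins, cell-surface molecules on chromosome 18, summed to 9.56 and 9.41 CPM in oeCtrl and 22.1 and 25.6 in oeYy1, with 10.5 to 18.7 in untransduced ES cells. Only 8 of 24 members were tested, and 5 of them rose, though fewer did in each fit without 1 library. Members could pass the count filter through the oeYy1 libraries alone, which favours rises in this count. Pcdhb14 did so, at a mean of 3.87 CPM in oeYy1 and 0 to 0.337 in the other groups. Pcdhb17 was at 0 counts in both oeCtrl libraries and at 2.16 and 2.61 CPM in oeYy1.

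Lists of YY1 cofactors and chromatin regulators stand beside 14.8% of all genes higher and 17.1% lower. In the INO80 complex 1 of 13 genes rose and 2 fell (0 to 1 without any 1 of the 4 libraries), the rise being that of the ATPase Ino80 itself (98.5 and 112 against 165 and 165 CPM, 0.64 ± 0.12, adjusted p = 0.00052). In PRC2, 3 of 11 fell (2 in each fit without 1 of the 4 libraries). Its methyltransferase Ezh2 was at 246 and 244 against 165 and 164 CPM (-0.58 ± 0.11, adjusted p = 0.00068), and its accessory subunit Phf19 fell by 1.36. Of 19 genes of H3K4 methylation and histone deacetylation 4 rose and 0 fell (at an unadjusted p under 0.05, 1 fell; DESeq2 called 0 lower). Setd1b, a subunit of an H3K4 methyltransferase complex, was at 21.1 and 26.5 against 67.5 and 75.8 CPM (1.58 ± 0.17, adjusted p = 4.2e-06), and its relative Kmt2c rose by 1.05. Interferon-related genes diverged, with 6 of 20 higher and 3 lower (3 to 5 and 2 to 3 in the fits without 1 library): Ddx58, the RNA sensor RIG-I, was at 15.7 and 15.2 against 69.2 and 80.5 CPM (2.27 ± 0.16, adjusted p = 5.3e-08), and Bst2, the antiviral tetherin, at 66.7 and 52.1 against 9.88 and 8.6 CPM (-2.68 ± 0.17, adjusted p = 1.6e-08).

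Genes on the Y chromosome stood apart in these groups. Their summed level over 10 genes was 111 and 131 CPM in oeCtrl, 27.3 and 26.6 in oeYy1 and 63.6 to 76.9 in untransduced ES cells. Of the 6 that were tested 4 fell, beside 17.1% of all genes. Uty, a demethylase-related gene, was at 22 and 27.5 against 2.42 and 2.4 CPM (-3.36 ± 0.25, adjusted p = 6.8e-08). A difference of this kind between the cultures and the effect of Yy1 cannot be told apart in this design. On the X chromosome the median log2 difference was 0.01 over 578 genes, as on the autosomes. Chromosome 8 stood above untransduced ES cells in both groups, by a median log2 difference of 0.36 and 0.35 in oeCtrl and 0.24 and 0.23 in oeYy1. In oeYy1 against oeCtrl its median was -0.06, the lowest of any autosome. Of its 783 tested genes 22.5% were lower and 13.8% higher there, beside 17.1% and 14.8% of all genes. The part of chromosome 8 in this comparison and in those with untransduced ES cells was not tested.

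**Figure D3:**
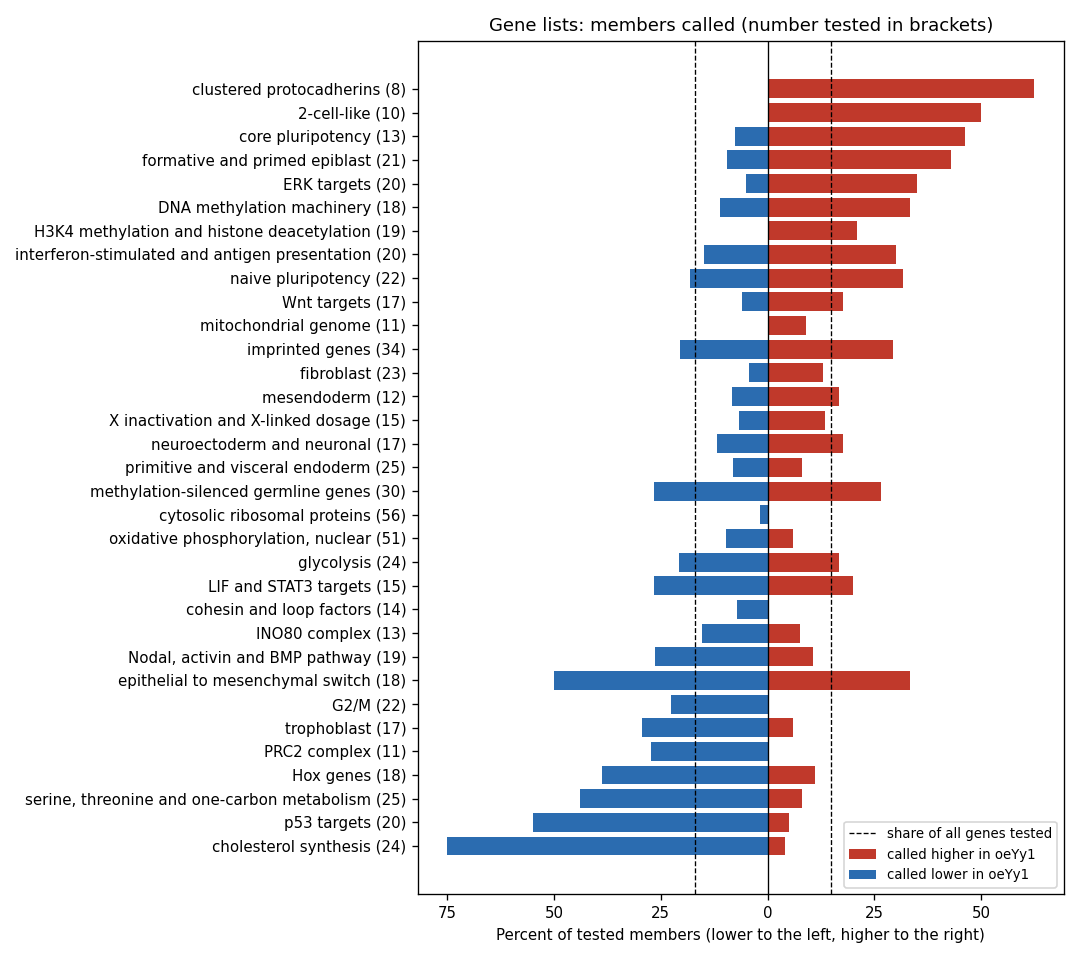
For each gene list with at least 8 tested members, the bar to the right gives the percent of tested members called higher in oeYy1 and the bar to the left the percent called lower; dashed lines are the shares over all genes tested (14.8% and 17.1%). Cholesterol synthesis (18 of 24 lower) and p53 targets (11 of 20 lower) reach furthest left.

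Some of the largest falls lay beside other genes that fell, which was noticed after the values were seen. The 12 genes with the largest falls had 63 tested neighbours within 100 kb, of which 27 were also called lower (42.9%) and 6 higher, where 17.1% and 14.8% of all genes were. The 12 with the largest rises had 40, of which 10 were called higher (25%) and 9 lower, so that neighbours of the rises were called in both directions about as often. Neighbours of 1 gene are not independent, and some pairs count each other. Aire (chr10:78030022-78043610) and Dnmt3l (chr10:78042287-78063622) overlap in the annotation, so reads at the overlap may have been assigned to either. Icosl, a costimulatory ligand 5.75 kb beyond Dnmt3l, was at 4.2 and 3.27 against 17.9 and 23.1 CPM (2.45 ± 0.31, adjusted p = 1.6e-05). Pfkl, the liver-type phosphofructokinase on the other side, was at 69.7 and 84.4 against 143 and 141 CPM (0.87 ± 0.15, adjusted p = 0.00024), so 4 adjoining genes rose. Kirrel2, which lies 0.692 kb from the nephrin gene Nphs1, was at 28.5 and 23.7 against 3.14 and 2.04 CPM (-3.32 ± 0.25, adjusted p = 9.8e-08). Nphs1 itself was at 80.1 and 77.2 against 6.87 and 3.8 CPM (-3.88 ± 0.23, adjusted p = 1.6e-08), with 14.5 to 16.1 in untransduced ES cells. Against untransduced ES cells the log2 differences of Nphs1 and Kirrel2 were smaller, at -1.55 and -1.21. Arhgap33, also within 100 kb of Nphs1, rose by 1.53 ± 0.28 against oeCtrl (adjusted p = 0.00048). Within 100 kb of Lefty2, Lefty1 fell by 3.49 and the membrane protein gene Tmem63a by 2.32, while H3f3a rose by 0.96. Against untransduced ES cells the log2 difference of Tmem63a was -0.83. Next to Aldh1a3 the kinase gene Lrrk1 fell by 2.80, and next to the sodium channel gene Scnn1a the TNF receptor gene Tnfrsf1a fell by 1.89. Chit1 and Chil1, related genes of the chitinase family, lie 30.6 kb apart, and Btg2 lies on the other side of Chit1.

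**Figure D4:**
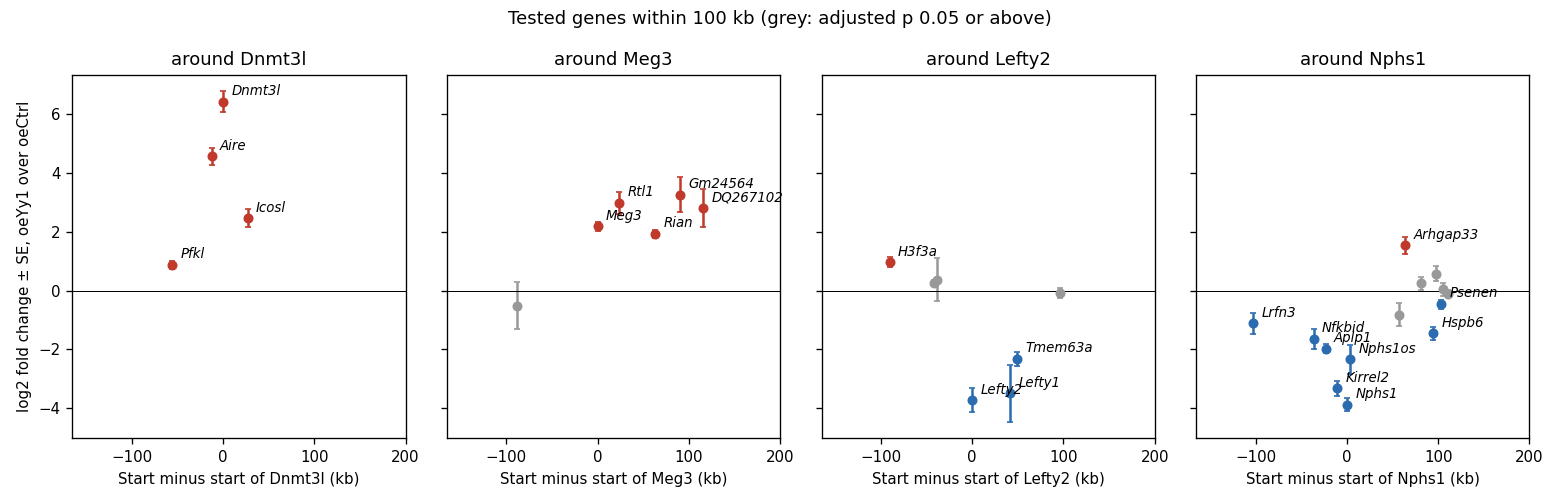
Log2 fold change of oeYy1 over oeCtrl (points, with bars of 1 SE) against the distance in kb between gene starts, for tested genes within 100 kb of Dnmt3l, Meg3, Lefty2 and Nphs1, apart from 1 gene not reported here; coloured and named genes were called. All 4 genes around Dnmt3l rose. Genes starting within about 50 kb of the start of Nphs1 that were called fell, while Arhgap33 further along rose (1.53).

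The reverse manipulation, depletion of Yy1 in EPS cells, shares no library with this comparison. There Yy1 fell from a mean of 134 to 70.5 CPM (-0.99 ± 0.11, adjusted p = 4.4e-06), and 2490 genes were called higher (15.1%) and 2192 lower (13.3%). Of the 2441 genes higher with Yy1 overexpression, 716 (29.3%, and 32.7% of those lower on depletion) were lower on depletion and 233 (9.55%) higher. Of the 2814 genes lower with overexpression, 965 (34.3%, and 38.8% of those higher on depletion) were higher on depletion and 177 (6.29%) lower. Opposite calls were thus more frequent than the shares over all genes and like calls less frequent, as a description with no test of the overlap. Without any 1 of the 4 overexpression libraries the counts were 404 to 511, 125 to 136, 647 to 740 and 83 to 108.

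Named genes differed in how far the manipulations mirrored each other. Enox1 fell from 78.9 to 4.46 CPM on depletion (-4.21 ± 0.25), Bmp4 from 49.5 to 5.85 (-3.13 ± 0.26), Meg3 from 215 to 73.2 (-1.63 ± 0.15) and Ddx58 from 72 to 16.2 (-2.23 ± 0.16), all with adjusted p under 0.05. Cdkn1a rose from 91.4 to 231 CPM (1.27 ± 0.15, adjusted p = 8.6e-06). A test of the overexpression effect minus the reversed depletion effect gave -0.61 ± 0.34 for Enox1 (adjusted p = 0.24), 0.59 ± 0.40 for Bmp4 (0.32), 0.04 ± 0.23 for Ddx58 (0.92) and 0.12 ± 0.20 for Cdkn1a (0.73), which does not show that the effects were alike. That test was called for 3192 genes (19.4%). For Dnmt3l, which fell from 56.6 to 9 CPM on depletion (-2.73 ± 0.29), the overexpression effect was larger by 3.68 ± 0.45 (adjusted p = 5.9e-05). Aire (-0.45 ± 0.31, adjusted p = 0.29 on depletion), Kcp (-0.10 ± 0.34, adjusted p = 0.86) and Bst2 (0.09 ± 0.15, adjusted p = 0.70) were not called on depletion, and the difference between the manipulations was called for each (adjusted p = 5.6e-06, 3.6e-05 and 1.2e-06). For Srebf2 it was called too (-0.70 ± 0.16, adjusted p = 0.0057), with 532 against 663 CPM on depletion (0.26 ± 0.12, adjusted p = 0.11). Chac1 was lower in both manipulations, from 53 to 30.7 CPM on depletion (-0.86 ± 0.29, adjusted p = 0.04).

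As a list, p53 targets went the opposite way on depletion, with 11 of 20 higher and 2 lower, and ERK targets likewise, with 11 of 20 lower and 1 higher. Cholesterol synthesis genes did not, with 3 of 24 higher and 6 lower. On depletion 15.1% of all genes were called higher and 13.3% lower, so the cholesterol share of rises was near that of all genes. Y-linked genes also differed on depletion, with Uty at a mean of 1.01 CPM in shCtrl and 31 in shYy1; leaving X-linked and Y-linked genes out, 745 of the genes higher with overexpression were lower on depletion and 875 of those lower were higher.

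**Figure D5:**
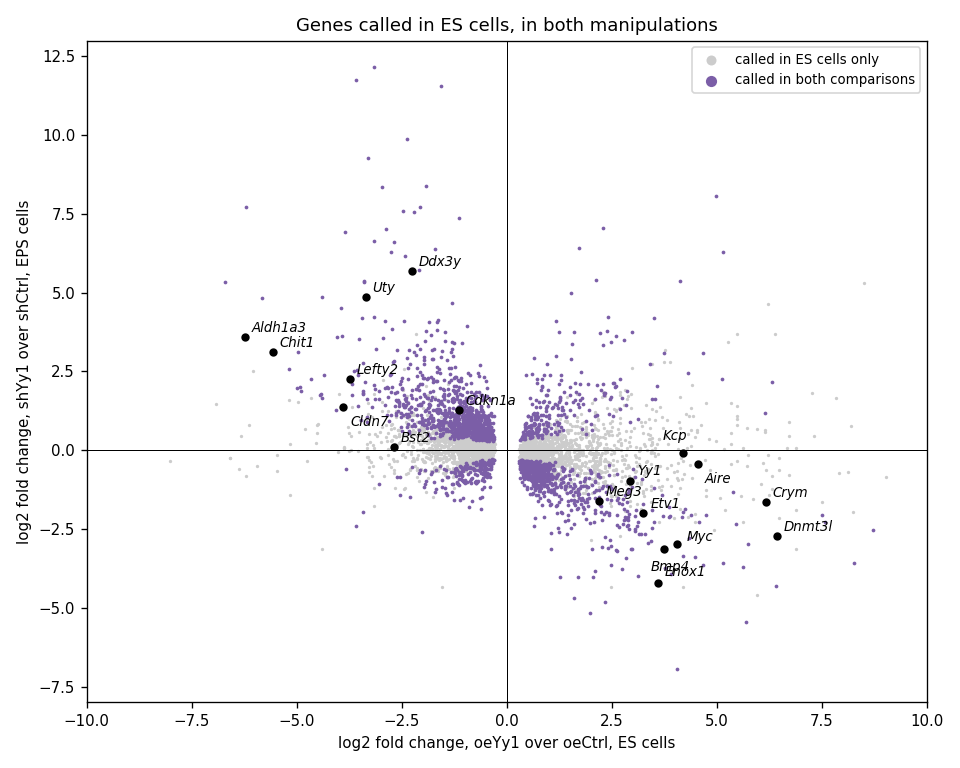
Genes called in ES cells, with the log2 fold change of oeYy1 over oeCtrl on the x axis and of shYy1 over shCtrl in EPS cells on the y axis; purple genes were called in both. The quadrants of opposite change hold 716 and 965 purple genes, those of like change 233 and 177.

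Untransduced EPS cells differ from ES cells without any change in Yy1 (0.02 ± 0.09, adjusted p = 0.91). Of the genes higher with Yy1 overexpression 476 (19.5%) were higher in EPS than in ES cells, against 13.8% of all genes, and 435 (17.8%) lower, against 16.9%. Of those lower with overexpression 749 (26.6%) were lower in EPS cells and 442 (15.7%) higher. Feeder fibroblast markers differed between these groups (234 to 736 CPM in EPS and 1986 to 3649 in ES cells), and their part in these counts was not tested. Dnmt3l (1.63), Bmp4 (3.21), Lin28a (2.47) and Dnmt3b (2.25) were higher in EPS cells, and Aldh1a3 (-3.78) and Chit1 (-2.04) lower, each in the direction seen with Yy1 overexpression. Other named genes were called against that direction. Epcam (1.99), Nphs1 (1.98) and Cldn7 (0.94) were higher in EPS cells, and Tet2 (-1.54) and Sobp (-1.35) lower. Etv1 (-0.02, adjusted p = 0.94) and Bst2 (0.14, adjusted p = 0.41) were not called between the untransduced states.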

How the data were processed

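The values are whole-number read counts per gene symbol, deposited by the authors with no normalization, 1 table per library. The counting tool, library type and strand setting are not given in the sources used here; CASAVA, Bowtie2 2.3.2, mm10 and GRCm38.p6 are named, with no role, per the submitters' processing notes. Summary lines for unassigned reads were dropped (for the 4 libraries 5.79 to 7% of reads outside genes and 4.9 to 5.24% ambiguous).

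Groups came from sample titles. edgeR 4.0.16 in R 4.3.3 was fitted to the 14 undifferentiated libraries in 6 groups, which share 1 estimate of spread, after TMM scaling and filterByExpr, using the quasi-likelihood F-test with robust settings; p-values were adjusted by Benjamini-Hochberg over all 16440 genes tested, and a gene was called under 0.05. Levels are CPM on plain gene-count totals. The script was tested on simulated counts. No pair of replicates agreed within sampling noise. The day 6 libraries were not used.

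The gene lists (35, with 741 genes) and the comparison itself were chosen with earlier results of these data known. Named genes are Yy1, the 12 largest rises and falls among called genes averaging 5 CPM or more without overlap of the groups, the 5 called genes with the smallest p in each list, and a fixed set of lineage and methylation genes; genome neighbours, and which of these genes are described, were chosen after their values were seen. Some genes of these sets are not reported here. Coordinates and promoter windows come from RefSeq on GRCm38.p6, which held 90.9% of the tested genes. Alternatives were RLE factors, DESeq2 1.42.0, other filters, fewer libraries, a replicate block, each library left out, untransduced ES cells as control, and fits without sex-linked genes or without Yy1 in library sizes.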

Additional observations from a re-analysis of the deposited data

How the results depend on the processing

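With 2 libraries a group, leaving out 1 library lowered these counts: 1369 to 1533 genes were called higher, 1691 to 2081 lower, 872 to 938 at least 2-fold higher and 963 to 1162 at least 2-fold lower. Genes higher with overexpression were then lower on depletion in 404 to 511 cases and higher in 125 to 136, and genes lower with overexpression were higher on depletion in 647 to 740 cases and lower in 83 to 108. Against EPS over ES the same 4 counts were 298 to 328 (higher and higher), 236 to 259 (higher and lower), 288 to 340 (lower and higher) and 464 to 546 (lower and lower). A fit of the 4 overexpression libraries alone called 3989 higher and 4160 lower. RLE factors, DESeq2, both other filters, the 7 ES libraries, and the fits without sex-linked genes or without Yy1 in library sizes left every count of genes within 1.5 times. Under RLE factors the median over all genes was 0.05. At 14193750 to 15300525 gene counts a library, genes under about 1 CPM rest on few counts.

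The replicate numbers did not pair the libraries: the deviations of same-numbered libraries correlated at -0.011 over 16440 genes. A fit with the replicate block called 2262 higher and 2644 lower, and lost the named calls of Ino80e, Mtf2, Nkd2, Top2a and Sox2.

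With untransduced ES cells as the control, 4452 genes were higher and 4750 lower, 2057 and 2596 of them at least 2-fold, and 533 and 479 had like calls on depletion. Feeder markers differ in that comparison (1986 to 3649 CPM against 10.99 to 11.8), and the cause was not tested. The list median also turned for imprinted (-0.23), naive pluripotency (-0.17), ERK (-0.26), Wnt (-0.35), endoderm (-0.07), neuroectoderm (-0.22), fibroblast (-6.66), ribosomal protein (-1.31) and interferon genes (-1.96), and for cohesin (0.23), germline (0.38), cholesterol (0.05) and G2/M genes (0.27). The log2 difference then reversed for Ino80e (0.46), Mau2 (0.056), Phf19 (0.61), Klf2 (-0.093), Sall1 (0.63), Klf5 (0.95), Lin28a (-0.48), Foxd3 (-0.034), Bcl3 (0.62), Gata4 (0.24), Nefm (-0.22), Stmn2 (-0.46), Fstl1 (-2.19), Pdgfrb (-1.69), Dcn (-6.02), Srebf2 (0.10), Nsdhl (0.094), H2-D1 (-1.13), Aurkb (0.52), Top2a (0.39), Hprt (-0.13), Zfp42 (-0.30), Dnmt1 (0.83), Pou5f1 (-0.98), Sox2 (-0.30), Klf4 (-0.31), Pdgfra (-2.87), Hdac6 (0.48) and Xist (-3.97).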
